A study of Mus musculus with 8 samples.

Results

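The response of mouse splenic B cells to culture with lipopolysaccharide (LPS), a component of the outer membrane of Gram-negative bacteria, was followed across all genes and 4 genotypes. All 8 of the 8 RNA-seq libraries of the series take part, chosen as the resting and the stimulated library of each genotype. The genotypes were wild-type and mice homozygous for deletion of 3'PAL, of 3'RR or of hs3b-hs4, on a background labelled 129/C58BL/6 mixed. The 3'RR is a cluster of enhancers downstream of the immunoglobulin heavy chain constant genes, hs3b and hs4 are enhancers inside it, and the 3'PAL deletion is known here only by its name. Resting cells were purified from fresh spleen with a density gradient step and depletion of CD43-positive cells. Stimulated cells were cultured for 48 h with 5 µg/mL LPS in medium with serum and separated on a gradient again. Each library came from a pool of equal numbers of B cells from 4 animals, so a genotype had 1 library in each state and the 4 genotypes served as the 4 pairs of the comparison. Spread between pairs therefore holds genotype and pool together. No culture without LPS was part of the design, so effects of LPS, of 48 h outside the animal and of the second gradient cannot be told apart. The deletions are of regulatory DNA, and the labels name no gene of the table inside them, so they could not be checked in these counts. Values of a gene are given in the order wild-type, 3'PAL deletion, 3'RR deletion and hs3b-hs4 deletion, as CPM, a gene's counts scaled to a common library size.

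LPS is sensed by a receptor made of TLR4 and MD-2, helped by CD14, which signals through the adaptors MyD88 and TRIF to NF-kB and to interferon genes. In mouse B cells this signal, without help from T cells, starts growth, repeated division, switching of the antibody class in part of the cells and, in the end, antibody secretion. A resting B cell is small, makes little protein and keeps its cell cycle genes low.

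The libraries held 17883683 to 28785192 counted reads, and 3 reads corresponded to 0.102 to 0.163 CPM. Across genes, log2 CPM correlated at 0.958 to 0.982 between resting libraries, at 0.971 to 0.988 between stimulated libraries and at 0.804 to 0.872 between the states. Defining genes of B cells were present in every library. The summed level of the 12 pan-B genes was 4350, 4419, 4129 and 4223 CPM in the resting libraries and 2763, 3023, 3469 and 2995 CPM in the stimulated libraries, with none at 0. Genes of several other cell types were present at rest and lower after stimulation. The 21 monocyte and macrophage genes summed to 652.4, 491.6, 2172 and 937.7 CPM at rest, highest in the 3'RR deletion, and to 24.16, 30.71, 46.87 and 27.02 CPM after stimulation, when 11, 7, 3 and 7 of them were at 0. The 20 erythroid genes summed to 3288, 22350, 13950 and 10850 CPM at rest and to 21.02, 249.5, 176.7 and 69.08 CPM after stimulation. T cell genes summed to 136.2 to 159.1 CPM and to 37.08 to 79.2 CPM, and platelet genes to 17.15 to 79.63 CPM and to 1.23 to 1.62 CPM. Dendritic cell genes summed to 107.5, 71.53, 216.8 and 153.9 CPM and to 69.44, 69.56, 89.56 and 68.49 CPM. The part that loss of these cells takes in the falls below was not tested, and in pooled cells fewer cells of a type and less RNA per cell cannot be told apart.

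**Figure D1:**
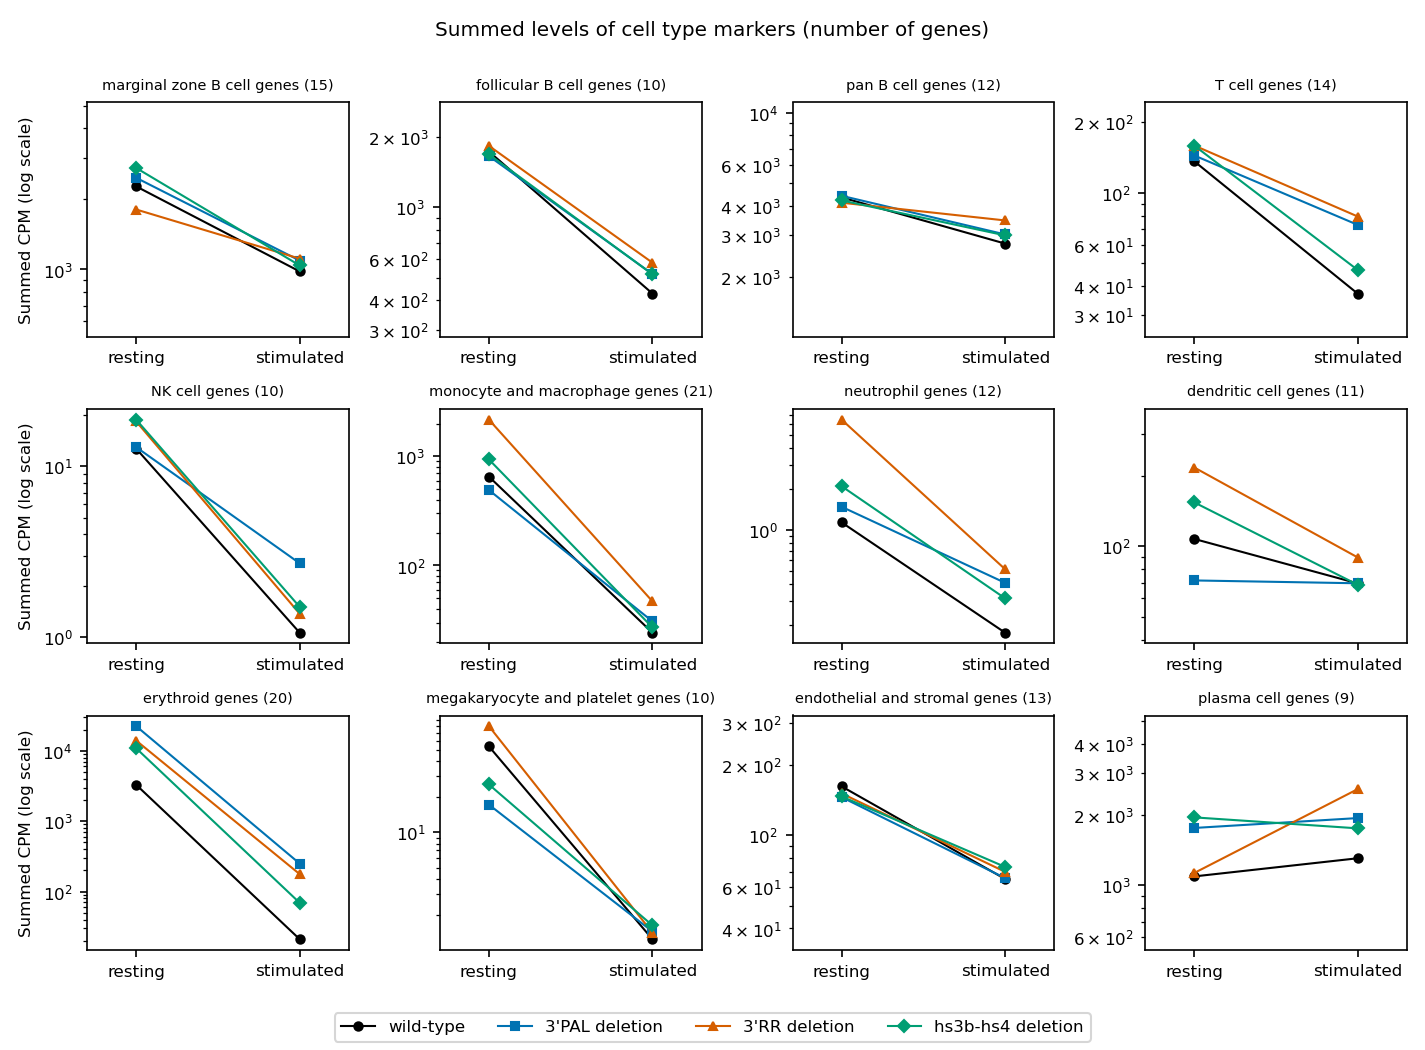
Summed level (CPM, log axis) of the marker genes of each cell type, except B-1 cells, in the 4 resting and the 4 stimulated libraries, one point per library. Pan-B genes stay between 2763 and 4419 CPM in all libraries, while the monocyte and macrophage genes stand at 491.6 CPM or more at rest and at 46.87 CPM or less after stimulation.

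The change of state touched most genes. Of 13791 genes with enough counts to test, 9761 (70.8%) passed the test at an adjusted p under 0.05 (edgeR's quasi-likelihood test, paired by genotype, Benjamini-Hochberg adjustment), 4816 of them higher (34.9%) and 4945 lower (35.9%) after stimulation. A stricter test, of changes over 2-fold, called 3288 genes (23.8%), 1472 higher (10.7%) and 1816 lower (13.2%). Each of these 3288 had the same direction in all 4 genotypes, for which the test itself selects, since the genotype pairs are its replicates. At 8764 genes (63.5%) the 4 stimulated libraries did not overlap the 4 resting libraries. Because so many genes pass, the counts over gene lists below are read against these percentages. The median log2 fold change over all genes tested was -0.03. Large falls outnumbered large rises: 490 called genes fell by more than 4 on the log2 scale and 49 rose by as much. Where a state lies near 3 reads, the fitted fold depends on the prior count of the fit. Of the 490 genes, 48 are on lists of genes of cells other than B cells, and none of the 49 is. These lists are short, each with 21 tested genes or fewer of the 13791. The 48 therefore cannot show how many of the 490 belong to other cells.

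**Figure D2:**
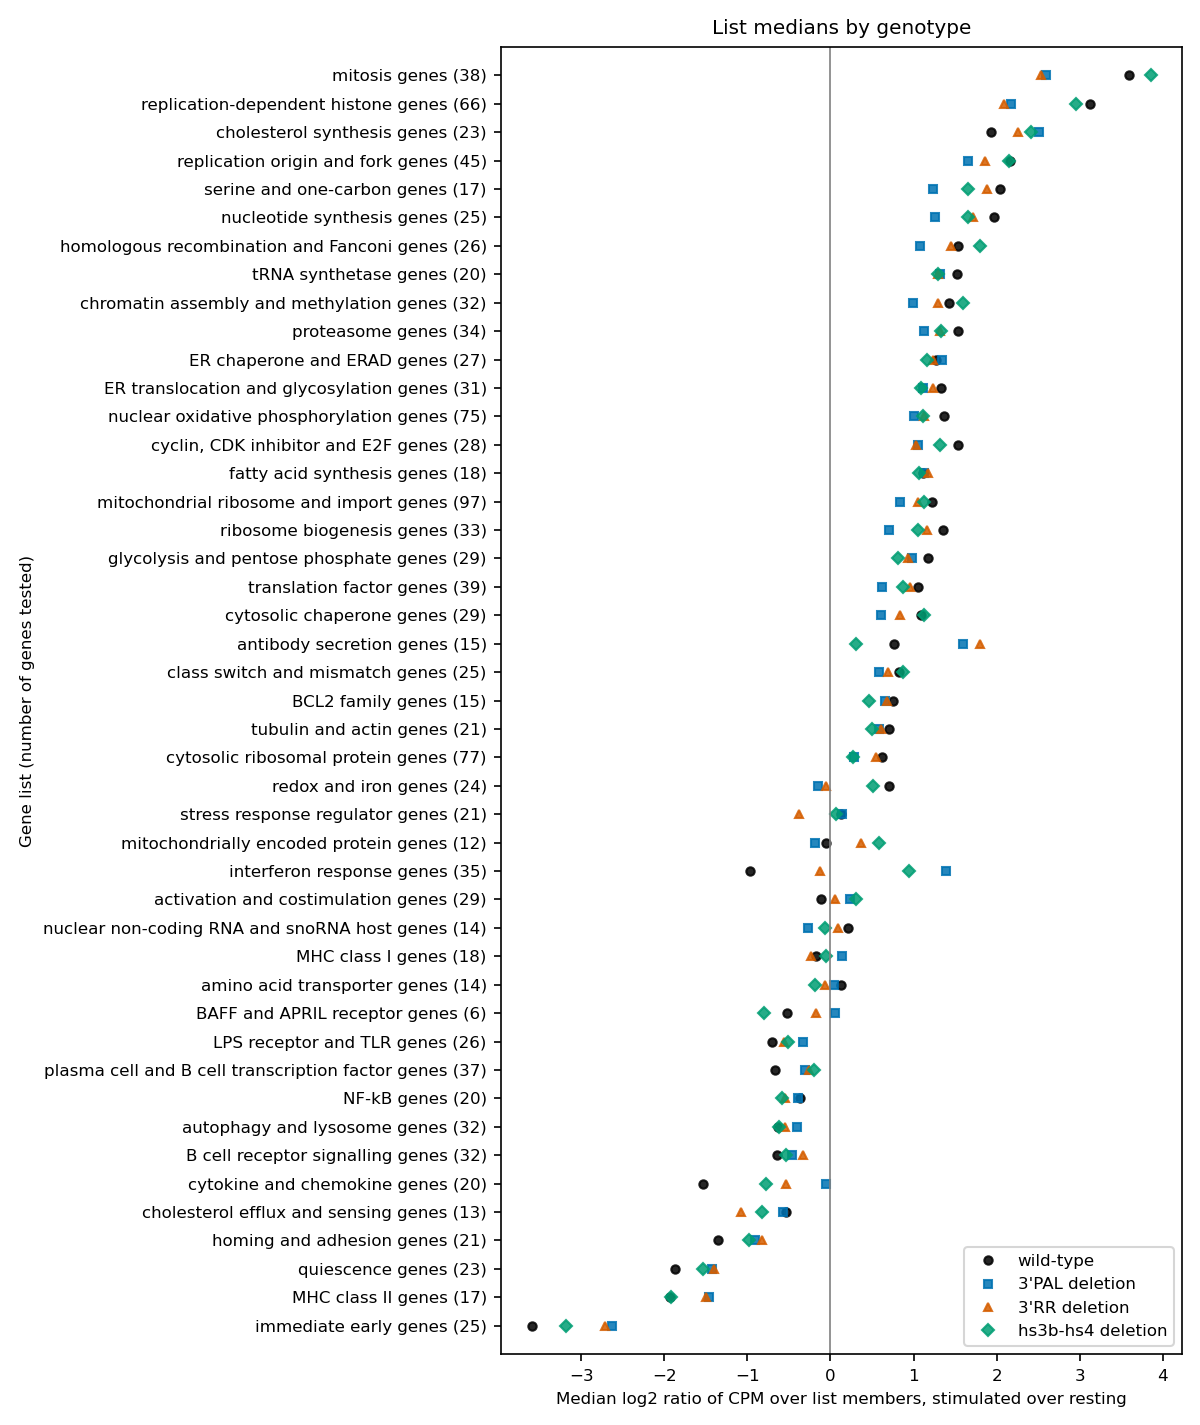
Median log2 fold change (stimulated against resting) of each gene list other than those of cell types, with 1 point per genotype, each from 1 stimulated and 1 resting library. Among the lists drawn, mitosis genes lie at the top, with 2.54 to 3.86 over the genotypes, and immediate early genes at the bottom, with -3.59 to -2.63.

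As shares of all counted reads, the RNA classes differed between the states by unequal amounts. Reads of replication-dependent histone genes made up 0.272% ± 0.087 at rest and 1.5% ± 0.14 after stimulation (mean ± SD, n = 4 per state), and those of mitosis genes 0.0784% ± 0.0222 and 0.540% ± 0.057. The share of glycolysis and pentose phosphate genes was 0.207% ± 0.018 at rest and 0.652% ± 0.101 after stimulation. Cytosolic ribosomal protein genes took 4.63, 5.28, 5.44 and 5.93% of the reads at rest and 6.76, 6.83, 7.35 and 6.75% after stimulation. MHC class II genes differed the other way, with 1.39% ± 0.19 and 0.419% ± 0.060, as did the nuclear RNA Malat1, with 0.906% ± 0.116 and 0.426% ± 0.123. For each of these classes the resting and stimulated libraries did not overlap, and the exact sign-flip test over the 4 pairs gave p = 0.13, the smallest it can give. The 2 mitochondrial ribosomal RNAs took 18.9% ± 2.8 and 19.5% ± 0.4, a mean paired difference of 0.575 percentage points with an SD of 2.495 (exact sign-flip p = 0.75). Read sums over genes, and not numbers of molecules per cell, are compared here, and the total RNA per cell is not in the counts.

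**Figure D3:**
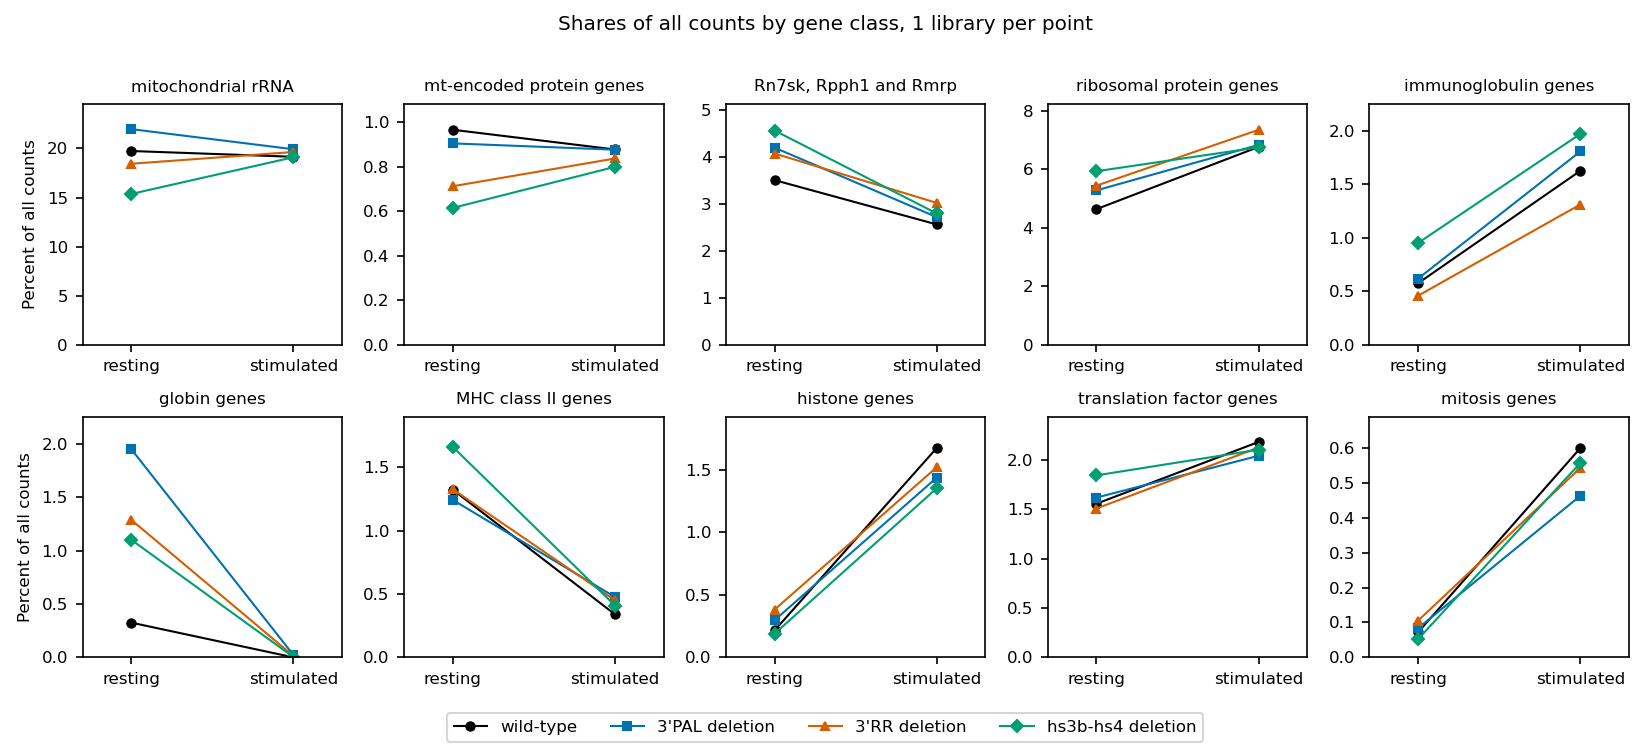
Share of counted reads (percent) taken by RNA classes in the resting and stimulated library of every genotype, joined by lines. Malat1 and the glycolysis and pentose phosphate genes are not drawn. Histone and mitosis shares are higher after stimulation in all 4 genotypes and MHC class II shares lower in all 4, while mitochondrial ribosomal RNA is higher in 2 genotypes and lower in 2.

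All 38 measured mitosis genes rose, 36 of them by more than 2-fold, with a median log2 fold change of 3.16. With the deposited kallisto estimates 1 of them fell. Cdc20, the activator of the anaphase-promoting complex, stood at 8.16, 10.6, 13.7 and 6.87 CPM at rest and at 133, 92.8, 125 and 121 CPM after stimulation. Its log2 fold change was 3.61 ± 0.20 (SE derived from the test statistic, here and below, n = 4 pairs, edgeR adjusted p = 1.3e-05). Bub1b, the spindle checkpoint kinase-like protein that restrains that complex, stood at 14.2, 16.7, 22.8 and 9.64 CPM and at 239, 165, 186 and 209.5 CPM (3.70 ± 0.25, adjusted p = 2.1e-05). In both genes every stimulated library lay far above every resting one. At rest the hs3b-hs4 deletion library was lowest and the 3'RR deletion library highest in both. The gene of the proliferation antigen Ki-67, Mki67, stood at 138, 376, 375 and 98.3 CPM at rest, higher in the 3'PAL and 3'RR deletion libraries than in the other two, and at 1559, 1487, 1663 and 1611 CPM after stimulation. Stimulated libraries were close to each other and the states did not overlap (2.91 ± 0.37, adjusted p = 0.00033). The same 2 genotypes with more Mki67 at rest also held the highest erythroid sums at rest (22350 and 13950 CPM). Between the other genotypes the order differed: the hs3b-hs4 deletion had less Mki67 than the wild-type but a higher erythroid sum (10850 against 3288 CPM). The part of erythroid precursors in these resting values was not tested.

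Genes of late cell cycle are known to carry the CHR element (TTTGAA) near their start, often with CCAAT boxes bound by the factor NF-Y. The promoters of Bub1b and Cdc20 are shown because they hold both within 250 bases before to 50 bases after the RefSeq start (GRCm38.p6, Bub1b at chr2:118597961-118598260 on the plus strand, Cdc20 at chr4:118437294-118437593 on the minus strand). Capitals mark CCAAT or TTTGAA, on either strand (ATTGG is CCAAT read on the other strand).
Bub1b: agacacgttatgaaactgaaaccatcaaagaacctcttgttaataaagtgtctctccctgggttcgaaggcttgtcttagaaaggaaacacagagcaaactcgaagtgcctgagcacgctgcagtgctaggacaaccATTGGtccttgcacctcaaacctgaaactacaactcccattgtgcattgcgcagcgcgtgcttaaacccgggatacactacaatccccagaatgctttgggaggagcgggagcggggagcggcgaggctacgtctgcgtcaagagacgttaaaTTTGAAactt
Cdc20: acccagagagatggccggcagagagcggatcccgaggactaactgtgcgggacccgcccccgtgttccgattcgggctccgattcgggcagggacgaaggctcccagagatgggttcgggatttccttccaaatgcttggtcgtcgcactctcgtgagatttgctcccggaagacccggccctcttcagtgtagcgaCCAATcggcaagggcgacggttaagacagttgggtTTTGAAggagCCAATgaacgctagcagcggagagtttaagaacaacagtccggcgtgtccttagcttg
RefSeq promoters were matched for 31 of the 38 mitosis genes. TTTGAA was present in 23 of the 31 (74.2%), against 12.1% of all tested genes with a promoter and 18.1% of all 27025 promoters of the same length. CCAAT was present in 23 of the 31 as well, against 39.4% and 37.9%, and 20 held both, against 5.2% of tested genes. CCAAT was more frequent still in promoters of ER chaperone and degradation genes (95.5%) and of cholesterol synthesis genes (87.5%). In the other lists searched it was present in 32.1 to 55.6%. Motif matches describe the letters in these windows and not the binding of a factor.

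**Figure D4:**
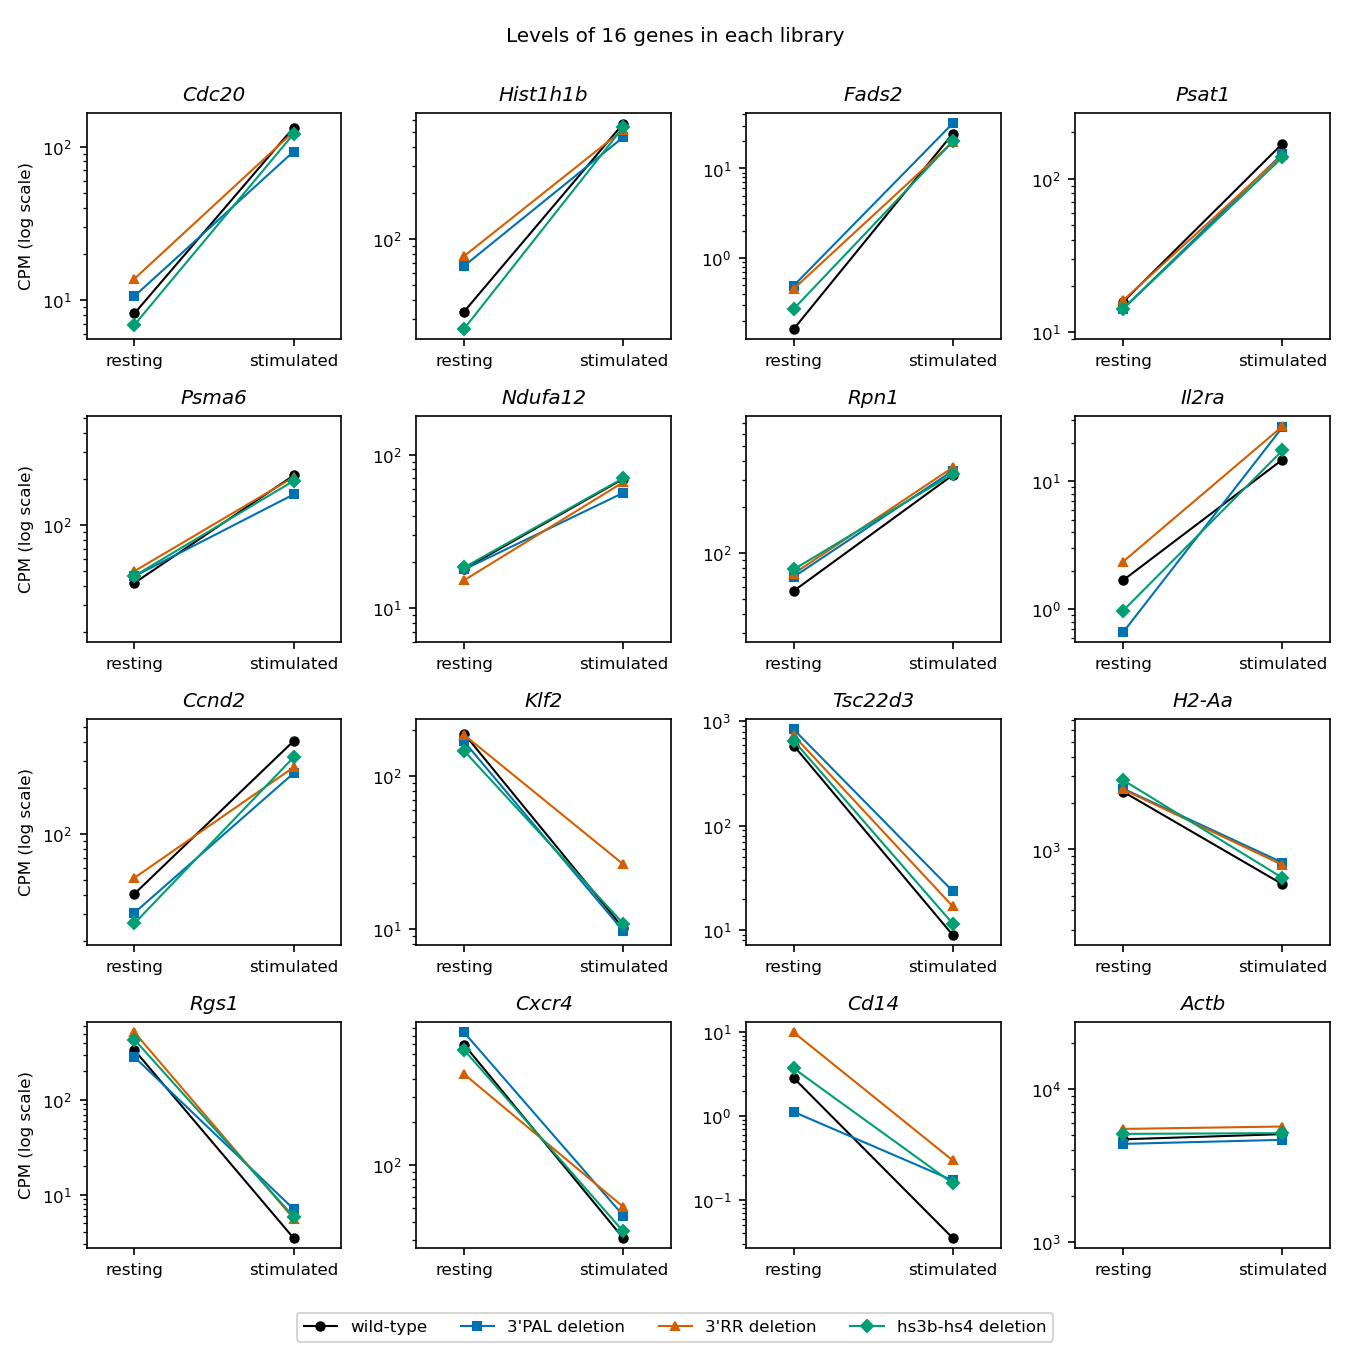
Level (CPM, log axis) of selected genes in each of the 8 libraries, resting and stimulated, joined by a line within each genotype. Cdc20 and Hist1h1b are higher in all stimulated than in all resting libraries, Klf2 and Tsc22d3 are lower in all of them, and Actb lies level.

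Replication genes rose as well. Of 45 measured origin and fork genes, 43 rose (35 by more than 2-fold) and 1 fell, with a median of 1.97. The 1 that fell was Cdt1, which loads the MCM helicase on origins and is destroyed when S phase begins. Its level was 69.5, 69.5, 54.5 and 72.9 CPM at rest and 32.7, 30.5, 32.4 and 35.1 CPM after stimulation, with no overlap (-1.02 ± 0.10, edgeR adjusted p = 7.5e-05). Nucleotide synthesis genes rose at 22 of 25 and fell at 2. Tyms, the thymidylate synthase, stood at 6.63, 7.27, 9.12 and 6.17 CPM and at 103, 73, 60.8 and 88.1 CPM (3.45 ± 0.21, adjusted p = 1.6e-05). The wild-type library was highest after stimulation, and every stimulated value lay above every resting value. Rrm2b, the subunit of ribonucleotide reductase induced by p53, was 1 of the 2 that fell, from 33.3, 32.1, 30.3 and 28.8 CPM to 17, 15.8, 15.5 and 16.7 CPM (-0.94 ± 0.09, adjusted p = 7.8e-05). The E2F site TTTCCCGC, searched on both strands, was present in 8 of the 36 replication promoters matched (22.2%), against 2.15% of tested genes, and TTTGGCGC in 6 of them (16.7%), against 1.08%.

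Histone genes that are expressed in S phase rose at 64 of 66 measured members, 62 of them by more than 2-fold. The linker histone Hist1h1b stood at 33.5, 66.6, 77.2 and 25.9 CPM at rest, highest in the 3'PAL and 3'RR deletions, and at 566, 461, 517 and 537 CPM after stimulation (3.49 ± 0.32, edgeR adjusted p = 6.8e-05). The states did not overlap. Hist3h2a was the only member that fell, from 14.1, 14, 16.8 and 9.8 CPM to 4.61, 6.59, 6.9 and 4.37 CPM (-1.28 ± 0.13, adjusted p = 0.00011). With the deposited kallisto estimates its direction was the opposite, 1.83 on the log2 scale. Of the D-type cyclins, which start the cycle with CDK4 and CDK6, Ccnd2 rose from 40.9, 30.7, 52 and 26.2 CPM to 406, 250.4, 274 and 318 CPM (3.08 ± 0.20, adjusted p = 1.9e-05). Ccnd3 rose less, by 0.42 ± 0.12 on the log2 scale (adjusted p = 0.017), with overlapping states, and did not pass without the pairing (adjusted p = 0.082). Ccnd1 stood at 24, 14.7, 69.1 and 26.2 CPM at rest, highest in the 3'RR deletion library, where macrophage genes were highest too, and at 0 to 0.0737 CPM after stimulation. Cdkn2a, which encodes the cell cycle inhibitors p16 and p19Arf, was at 0, 0.165, 0.458 and 0.117 CPM at rest and at 2.15, 1.5, 1.73 and 3.07 CPM after stimulation, low but without overlap (3.42 ± 0.59, adjusted p = 0.0015). Chromatin assembly and methylation genes rose at 21 of 32 and fell at 9. Those that rose include Ezh2, the methyltransferase of histone H3 lysine 27 (3.05 ± 0.19, adjusted p = 1.7e-05), and those that fell include Kdm6b, a demethylase of the same mark, which went from 85.5, 67.5, 48.7 and 80.5 CPM to 2.92, 4.1, 3.32 and 2.95 CPM (-4.38 ± 0.20, adjusted p = 6.6e-06). Neither gene's states overlapped.

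Most DNA repair genes rose too. Homologous recombination and Fanconi genes rose at 24 of 26 and none fell, with a median of 1.42. Genes of class switching and mismatch repair rose at 17 of 25 and fell at 3.

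Genes of lipid synthesis rose, and most genes of cholesterol export and sensing fell. All 23 measured cholesterol synthesis genes rose, 21 of them by more than 2-fold, with a median of 2.09. Fdps, which makes farnesyl pyrophosphate, stood at 10.7, 10.9, 13.7 and 12.6 CPM at rest and at 159, 168, 129 and 131 CPM after stimulation (3.61 ± 0.15, edgeR adjusted p = 5.7e-06). Hmgcs1, the synthase of HMG-CoA, went from 42.5, 41.8, 39.1 and 39.6 CPM to 390.1, 388, 288 and 357 CPM (3.12 ± 0.10, adjusted p = 2.9e-06). In both genes the resting libraries differed little and lay far below all stimulated ones. Efflux and sensing genes fell at 8 of 13 and rose at 4. Abca1, the transporter that exports cholesterol, went from 143, 146, 196 and 187 CPM to 5.11, 11.5, 8.48 and 6.46 CPM (-4.45 ± 0.22, adjusted p = 8.3e-06). Nr1h3, which encodes the oxysterol receptor LXR-alpha and is also expressed in macrophages, was at 8.92, 6.74, 21.7 and 10.3 CPM at rest, highest in the 3'RR deletion, and at 0.118 to 0.239 CPM after stimulation. Fatty acid synthesis genes rose at 13 of 18 and fell at 2. Scd2, a stearoyl-CoA desaturase, went from 63.1, 66.2, 86.8 and 69.1 CPM to 584, 706, 454 and 535 CPM (2.99 ± 0.18, adjusted p = 1.5e-05). Fads2, the delta-6 desaturase of polyunsaturated fatty acids, was near the counting floor at rest, at 0.163, 0.496, 0.458 and 0.273 CPM, and at 24.5, 31.8, 19.8 and 20 CPM after stimulation (adjusted p = 4.4e-06). The sterol site TCACCCCAC was present in 1 of 16 cholesterol synthesis promoters, that of Hmgcs1 (6.25%), against 0.477% of tested genes and 0.522% of all promoters.

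Amino acid and sugar metabolism showed a wide spread among members. Serine and one-carbon genes rose at 13 of 17 and none fell, with a median of 1.78. Psat1, the second enzyme of serine synthesis, was even across genotypes in both states, at 15.7, 14.2, 16.1 and 14.1 CPM and 169, 145, 142 and 138 CPM (3.30 ± 0.09, edgeR adjusted p = 2.4e-06). Phgdh, the first enzyme, stood at 37.7, 39.3, 42.5 and 40.1 CPM and at 196, 149, 193 and 181 CPM (2.16 ± 0.10, adjusted p = 6.8e-06). Asns, the asparagine synthetase, was uneven: 5.44, 17.3, 3.66 and 17.7 CPM at rest and 47.9, 71, 18.8 and 46.1 CPM after stimulation (2.19 ± 0.26, adjusted p = 0.00023). The 3'RR deletion library after stimulation (18.8 CPM) lay just above the hs3b-hs4 deletion library at rest (17.7 CPM). Chac1, which degrades glutathione, stood at 0.489, 0.620, 0.880 and 0.742 CPM at rest and at 3.56, 11.4, 4.24 and 2.48 CPM after stimulation (2.77 ± 0.39, adjusted p = 0.00058). Slc1a4, an exchanger of neutral amino acids, went from 0.870, 0.785, 0.845 and 0.820 CPM to 6.3, 11.3, 6.42 and 4.65 CPM (3.04 ± 0.25, adjusted p = 4.2e-05). After stimulation Asns, Chac1 and Slc1a4 were highest in the 3'PAL deletion, while Psat1 was highest in the wild-type. Over the 14 amino acid transporter genes, 5 rose and 5 fell, and the median was -0.20.

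Glycolysis and pentose phosphate genes rose at 22 of 29 and fell at 4, with a median of 0.94. Tpi1, the triosephosphate isomerase, went from 35, 36.7, 44.2 and 43.2 CPM to 287, 378, 229 and 205 CPM (2.75 ± 0.20, edgeR adjusted p = 2.9e-05). Pgk1, the phosphoglycerate kinase, went from 70.2, 77.4, 77.2 and 84.1 CPM to 544, 701, 445 and 405 CPM (2.73 ± 0.17, adjusted p = 1.6e-05). The 3'PAL deletion library was highest after stimulation in both, as it was for the lactate exporter Slc16a3, at 6.62, 30.3, 4.09 and 1.22 CPM against 0.816, 0.289, 1.34 and 1.05 CPM at rest. For Slc16a3 the hs3b-hs4 deletion pair hardly differed and the states overlapped (2.74 ± 0.89, adjusted p = 0.027, and 0.079 without the wild-type pair). Hk3, a hexokinase of myeloid cells, fell from 4.3, 4.88, 14.2 and 7.07 CPM, highest in the 3'RR deletion, to 0.141, 0.171, 0.664 and 0.197 CPM (-4.73 ± 0.21, adjusted p = 6.7e-06).

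The nuclear and the mitochondrial genes of the respiratory chain gave unlike counts. Nuclear oxidative phosphorylation genes rose at 73 of 75 and none fell, with a median of 1.12. Ndufa12, a subunit of complex I, went from 17.9, 17.8, 15.1 and 18.3 CPM to 69.5, 56.3, 66.1 and 70.3 CPM (1.92 ± 0.10, edgeR adjusted p = 9.7e-06), with even values in each state. Genes of the mitochondrial ribosome and of protein import rose at 91 of 97 and fell at 1. Of the 12 tested genes encoded in the mitochondrial genome, 1 rose and none fell, with a median of 0.18. The 1 was mt-Nd6, at 45.5, 31, 21.2 and 16.6 CPM at rest and 71.8, 48.2, 40.4 and 46.5 CPM after stimulation (0.92 ± 0.15, adjusted p = 0.0011, and 0.052 with the kallisto estimates). It is higher after stimulation in each genotype, yet the states overlap, since the resting wild-type value is above the stimulated 3'RR value. mt-Nd2 was at 444, 403, 216 and 232 CPM and at 348, 321, 309 and 309.9 CPM, with a log2 fold change of 0.06 ± 0.17 (adjusted p = 0.76). Resting libraries of wild-type and 3'PAL deletion lay above, and those of 3'RR and hs3b-hs4 deletion below, all stimulated libraries for this gene.

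Genes of ribosome production and translation rose. Ribosome biogenesis genes rose at 32 of 33 and none fell, although only 9 passed the test of over 2-fold, and translation factor genes rose at 33 of 39 and fell at 4. Nop16, a nucleolar protein of the large subunit's assembly, stood at 14.2, 15.1, 15.5 and 17.6 CPM and at 68.5, 45.6, 59.8 and 62.2 CPM (1.90 ± 0.12, edgeR adjusted p = 1.8e-05). Npm1, the nucleolar chaperone nucleophosmin, went from 611, 614, 526 and 543 CPM to 2303, 1436, 1947 and 1879 CPM (1.71 ± 0.14, adjusted p = 4.7e-05). Both were lowest in the 3'PAL deletion among the stimulated libraries, and no stimulated value reached the resting range. Eif5a, the hypusine-bearing elongation factor, went from 130.0, 129, 123 and 128 CPM to 500.1, 333, 433 and 437 CPM (1.72 ± 0.12, adjusted p = 2.1e-05). Eif1, which guards start codon selection, was among the 4 that fell, from 206, 240.4, 181 and 208 CPM to 68.7, 82.9, 72.3 and 61.6 CPM (-1.55 ± 0.10, adjusted p = 1.7e-05). Cytosolic ribosomal protein genes rose at 53 of 77 and fell at 2, with 1 over 2-fold and a median of 0.44. That 1 was Rps27l, a ribosomal protein paralog known as a p53 target, at 17, 21.4, 23 and 20 CPM and 158, 102, 135 and 147 CPM (2.72 ± 0.16, adjusted p = 1.5e-05). The E-box CACGTG was present in 5 of the 28 ribosome biogenesis promoters matched (17.9%), against 10.4% of tested genes and 7.24% of all promoters. It was more frequent in promoters of tRNA synthetase genes (33.3%) and cholesterol synthesis genes (18.8%). In the other lists searched it was present in 9.68 to 15.8%.

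Aminoacyl-tRNA synthetase genes rose at 19 of 20 and none fell, with a median of 1.39. Yars, the tyrosyl-tRNA synthetase, was even within each state, at 28.4, 28.5, 30.2 and 28.6 CPM and 116, 112, 104 and 109 CPM (1.93 ± 0.08, edgeR adjusted p = 5.8e-06). Its promoter is shown because it carries a C/EBP-ATF composite site, TGATGCAA, of the kind known from genes of the amino acid response (GRCm38.p6, chr4:129189653-129189952, plus strand, 250 bases before to 50 after the RefSeq start, site in capitals).
Yars: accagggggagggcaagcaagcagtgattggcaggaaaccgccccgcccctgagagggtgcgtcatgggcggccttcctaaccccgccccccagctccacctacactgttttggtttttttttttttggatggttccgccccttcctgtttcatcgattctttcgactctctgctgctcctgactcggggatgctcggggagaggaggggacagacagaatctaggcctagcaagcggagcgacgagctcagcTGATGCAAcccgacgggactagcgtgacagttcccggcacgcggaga
The same 8 letters, on either strand, were present in 4 of the 12 synthetase promoters matched (Aars, Iars, Tars and Yars, 33.3%), against 0.673% of tested genes and 0.929% of all promoters.

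Genes of protein turnover and folding rose as well. All 34 proteasome genes rose, 21 of them by more than 2-fold, with a median of 1.32 and summed levels of 1757, 1887, 1923 and 1870 CPM at rest and 4947, 3938, 4710 and 4560 CPM after stimulation. Psma6, a subunit of the core particle, stood at 41.9, 46.4, 50 and 46.6 CPM and at 211, 159, 205 and 194 CPM (2.05 ± 0.11, edgeR adjusted p = 1e-05). Cytosolic chaperone genes rose at 20 of 29 and fell at 6. Hspd1, the chaperonin Hsp60 of mitochondria, which the list holds beside the cytosolic ones, went from 158, 158, 159 and 130.4 CPM to 725, 412, 635 and 662 CPM (1.98 ± 0.17, adjusted p = 4.7e-05). Hspa1a, the heat-inducible Hsp70, went the other way, from 14, 6.61, 28.9 and 13.5 CPM to 0.740, 1.23, 0.811 and 0.591 CPM (-4.05 ± 0.42, adjusted p = 0.00012). Its resting values spread from the 3'PAL to the 3'RR deletion by more than any stimulated difference, and still lay above all stimulated values. Autophagy and lysosome genes fell at 20 of 32 and rose at 3. Ctsb, the lysosomal protease cathepsin B, fell from 149, 187, 428 and 195 CPM to 56.7, 85.9, 88.4 and 67.8 CPM (-1.58 ± 0.18, adjusted p = 0.00021). It was highest at rest in the 3'RR deletion, beside the highest macrophage sum, and the states did not overlap.

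Genes of the endoplasmic reticulum (ER), where antibody chains enter the secretory pathway, rose in both of the lists examined. Translocation and glycosylation genes rose at 29 of 31 and fell at 1. Rpn1, a subunit of the oligosaccharyltransferase, went from 56.5, 69.8, 73.3 and 78.1 CPM to 323, 344, 362 and 328 CPM (2.30 ± 0.10, edgeR adjusted p = 6.5e-06). Chaperone and ER-associated degradation genes rose at 22 of 27 and fell at 1. Derl3, of the channel that returns misfolded proteins to the cytosol, stood at 4.13, 7.11, 7.15 and 9.68 CPM at rest, lowest in the wild-type, and at 27, 41.1, 38.9 and 31.7 CPM after stimulation (2.33 ± 0.17, adjusted p = 2.9e-05). Hsp90b1, the chaperone GRP94, went from 343, 439.7, 438 and 379 CPM to 1323, 1556, 1705 and 1345 CPM (1.89 ± 0.09, adjusted p = 8.4e-06). Hspa5, the chaperone BiP, rose far less, from 769, 905, 823 and 947 CPM to 1178, 1198, 1273 and 1101 CPM (0.47 ± 0.11, adjusted p = 0.0065). The states did not overlap in any of these genes. The promoters of Pdia6, a disulfide isomerase, and Derl3 are shown because they hold the ER stress element, written CCAAT, 9 bases and CCACG, which is bound by NF-Y with ATF6 (GRCm38.p6, Pdia6 at chr12:17266339-17266638 and Derl3 at chr10:75893148-75893447, both on the plus strand, element in capitals, in Derl3 on the other strand).
Pdia6: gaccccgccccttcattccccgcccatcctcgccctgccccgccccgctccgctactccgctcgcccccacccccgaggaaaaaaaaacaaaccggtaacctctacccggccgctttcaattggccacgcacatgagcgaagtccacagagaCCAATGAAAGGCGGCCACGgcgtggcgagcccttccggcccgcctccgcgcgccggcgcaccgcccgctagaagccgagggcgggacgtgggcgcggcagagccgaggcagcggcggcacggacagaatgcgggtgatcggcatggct
Derl3: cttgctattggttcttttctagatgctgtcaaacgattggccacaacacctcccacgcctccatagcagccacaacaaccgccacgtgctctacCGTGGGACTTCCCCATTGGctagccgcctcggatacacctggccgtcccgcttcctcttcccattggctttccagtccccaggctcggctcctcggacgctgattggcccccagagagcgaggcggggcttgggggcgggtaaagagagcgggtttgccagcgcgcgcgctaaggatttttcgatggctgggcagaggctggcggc
That element was present in 9 of 22 promoters matched (40.9%: Hspa5, Hsp90b1, Calr, Canx, Pdia6, Dnajc3, Creld2, Syvn1 and Derl3), against 0.195% of tested genes and 0.13% of all promoters. Regulators of the stress response were split, with 10 of 21 higher and 9 lower, as were all genes tested (34.9% higher and 35.9% lower). Atf3, an early stress factor, fell from 192, 160.4, 287 and 302 CPM to 17.6, 23.9, 10.3 and 14.7 CPM (-3.83 ± 0.34, adjusted p = 6.3e-05).

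Genes that keep lymphocytes at rest fell. Of 23 quiescence genes, 22 fell (14 by more than 2-fold) and 1 rose, with summed levels of 6092, 6315, 5883 and 5922 CPM at rest and 1400, 2057, 1830 and 1594 CPM after stimulation. Klf2, a factor of quiescence and of homing, stood at 189, 168, 186 and 146 CPM and at 10.2, 9.77, 26.6 and 10.9 CPM, where the 3'RR deletion was highest (-3.71 ± 0.25, edgeR adjusted p = 2.1e-05). Klf4, which restrains B cell division, went from 72.4, 107, 59.8 and 84.5 CPM to 0.916, 1.5, 0.959 and 1.58 CPM (-6.03 ± 0.13, adjusted p = 1.8e-06). Tsc22d3, the glucocorticoid-induced leucine zipper protein, went from 588, 841, 733 and 655 CPM to 8.91, 23.5, 16.8 and 11.5 CPM (-5.61 ± 0.18, adjusted p = 2.9e-06). Pik3ip1, an inhibitor of PI3 kinase, went from 114, 91.5, 79.7 and 74.4 CPM to 7.18, 12.2, 11.7 and 5.63 CPM (-3.33 ± 0.22, adjusted p = 2.1e-05). For each of these genes every resting value lay above every stimulated value, although resting Klf4 ran from 59.8 to 107 CPM and Pik3ip1 from 74.4 to 114 CPM.

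All 25 immediate early genes fell, 23 of them by more than 2-fold, with a median of -3.06. Their summed levels were 5194, 4893, 5160 and 5203 CPM at rest and 528.6, 806.1, 664.7 and 571.5 CPM after stimulation. Immediate early genes are those that cells can switch on within minutes of a signal, without new protein synthesis. Egr1, an early growth response factor, stood at 140.1, 71.9, 77.1 and 80.3 CPM at rest and at 11.8, 37.5, 23.1 and 27.3 CPM after stimulation, with the 3'PAL deletion pair closest (-1.91 ± 0.39, edgeR adjusted p = 0.0034). Rgs1, which damps chemokine receptors, fell from 337, 284, 518 and 434 CPM to 3.49, 7.07, 5.6 and 5.87 CPM (-6.15 ± 0.25, adjusted p = 5.1e-06). Its relative Rgs2 fell from 182, 194, 275 and 242 CPM to 5.92, 9.36, 11.7 and 7.52 CPM (-4.71 ± 0.14, adjusted p = 2.8e-06). Among the largest falls outside this list, Per1, a clock gene, fell from 219, 195, 155 and 219 CPM to 8.49, 15.2, 11 and 10.3 CPM (-4.14 ± 0.19, adjusted p = 7e-06). Irs2, an adaptor of the insulin receptor, fell from 697, 563, 378 and 479 CPM to 16.1, 42.4, 33.9 and 21.9 CPM (-4.26 ± 0.34, adjusted p = 3.7e-05). For each of these 5 genes the states did not overlap. The cyclic AMP response element TGACGTCA was present in 1 of the 19 immediate early promoters matched (5.26%), against 3.35% of tested genes and 1.88% of all promoters, and 1 form of the CArG box in 0 of them, against 0.0217% and 0.0777%.

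MHC class II genes, which present antigen to T cells, fell at 15 of 17, 12 of them by more than 2-fold, and none rose. Cd74, the invariant chain, stood at 4853, 4899, 4695 and 5957 CPM and at 1362, 1779.8, 1777 and 1670.5 CPM (-1.63 ± 0.13, edgeR adjusted p = 3.8e-05). H2-Aa, the alpha chain of I-A, went from 2379, 2492, 2463 and 2831 CPM to 593, 820.5, 793 and 653 CPM (-1.84 ± 0.13, adjusted p = 2.5e-05). H2-Oa, part of the inhibitor of peptide exchange in B cells, fell more, from 111, 116, 121 and 134 CPM to 15.9, 22.5, 18.5 and 19.2 CPM (-2.67 ± 0.10, adjusted p = 4.5e-06). No stimulated library reached the resting range in any of them. MHC class I genes were split, with 8 of 18 higher and 7 lower and none over 2-fold. Over all genes tested 34.9% were higher and 35.9% lower. With scaling by library size alone 5 of them rose in place of 8, and without the pairing 4 fell in place of 7.

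The receptors of the stimulus itself moved little or down. LPS receptor and Toll-like receptor genes fell at 14 of 26 and rose at 5. Tlr4, the signalling chain of the LPS receptor, was at 18.3, 19.2, 26.8 and 20.2 CPM and at 20.2, 18.1, 19.7 and 19.2 CPM, with overlapping states and a log2 fold change of -0.12 ± 0.12 (edgeR adjusted p = 0.39). Ly96, which encodes MD-2, did not pass either (-0.38 ± 0.24, adjusted p = 0.21). Cd14 fell from 2.83, 1.12, 9.86 and 3.67 CPM, highest in the 3'RR deletion library with its high macrophage sum, to 0.0352, 0.171, 0.295 and 0.158 CPM (-4.55 ± 0.44, adjusted p = 8.5e-05). Ticam2, an adaptor that links TLR4 to TRIF, rose from 2.28, 1.36, 3.59 and 3.44 CPM to 9.19, 6.73, 8.67 and 10.5 CPM (1.77 ± 0.20, adjusted p = 0.00017). B cell receptor signalling genes fell at 21 of 32 and rose at 2. Fcgr2b, the inhibitory Fc receptor of B cells, was 1 of those 2, at 71.4, 101, 81.7 and 85.3 CPM and 195, 214, 302 and 171 CPM (1.36 ± 0.15, adjusted p = 0.00019). NF-kB genes fell at 13 of 20 and rose at 3, or at 6 with the kallisto estimates.

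Receptors that place B cells in the spleen and lymph node fell. Homing and adhesion genes fell at 15 of 21 and rose at 2. Cxcr4, the receptor of CXCL12, stood at 696, 847, 433 and 638 CPM and at 31, 44.5, 51.2 and 34.5 CPM (-4.01 ± 0.25, edgeR adjusted p = 1.7e-05). S1pr1, which lets lymphocytes leave lymphoid organs, went from 259, 256, 249.7 and 206 CPM to 15.6, 24.6, 39.8 and 22.4 CPM, highest in the 3'RR deletion (-3.31 ± 0.22, adjusted p = 2.1e-05). The states did not overlap in either. Follicular B cell genes fell at 9 of 9, and their sum went from 1651 to 1825 CPM at rest to 427.7 to 579.2 CPM. Marginal zone B cell genes fell at 10 of 14 and rose at 3, and their sum went from 1802 to 2710 CPM to 980.5 to 1112 CPM. Pan-B genes fell at 10 of 12, 2 of them by more than 2-fold, so B cell markers as a whole took a smaller share of the reads too.

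Activation and costimulation genes did not move one way: 12 of 29 rose and 9 fell. All genes tested were split as well, with 34.9% higher and 35.9% lower. Il2ra, the alpha chain of the interleukin 2 receptor, stood at 1.69, 0.661, 2.36 and 0.976 CPM and at 14.8, 26.5, 27 and 17.4 CPM (3.95 ± 0.32, edgeR adjusted p = 4.1e-05). Cd86, a ligand of CD28, fell from 97.4, 103, 88.4 and 99.4 CPM to 29.1, 43, 24.5 and 26.4 CPM (-1.69 ± 0.12, adjusted p = 2.8e-05). Icosl, the ligand of ICOS, fell from 144, 120.4, 139 and 140.1 CPM to 14.4, 18.9, 14.5 and 20.4 CPM (-3.01 ± 0.14, adjusted p = 6.9e-06). Cd274, which encodes PD-L1, fell from 226, 206, 108 and 183 CPM, lowest in the 3'RR deletion, to 14.9, 25.7, 19.6 and 16.9 CPM (-3.20 ± 0.23, adjusted p = 2.8e-05). None of these 4 genes overlapped between the states. Cytokine and chemokine genes rose at 4 of 20 and fell at 10. Il6, of interleukin 6, was low throughout, at 0.0544, 0.331, 0.141 and 0.390 CPM at rest and 1.97, 1.06, 0.627 and 1.22 CPM after stimulation (2.29 ± 0.49, adjusted p = 0.0041), without overlap.

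Transcription factors of B cell and plasma cell identity fell at 20 of 37 and rose at 12. Bhlhe40, a repressor of the basic helix-loop-helix family, fell from 255, 236, 219.9 and 303 CPM to 22.1, 31.2, 31.2 and 28.6 CPM (-3.17 ± 0.15, edgeR adjusted p = 6.9e-06). Irf8, a factor of B cells and myeloid cells, was at 277, 259, 307 and 257 CPM and at 266, 275, 289 and 265 CPM, with overlapping states and a log2 fold change that rounds to 0 (SE 0.08, adjusted p = 0.99). BCL2 family genes rose at 8 of 15 and fell at 4. Bax, the pore former of apoptosis, rose from 30, 28.3, 30.7 and 29.3 CPM to 78.7, 57.7, 65.7 and 73.3 CPM (1.21 ± 0.09, adjusted p = 3.4e-05), while Pmaip1, which encodes the killer protein NOXA, fell from 123, 66.8, 200.3 and 178 CPM to 20.2, 17.1, 20 and 26.1 CPM (-2.67 ± 0.21, adjusted p = 3.5e-05). Mcl1, the survival protein that NOXA binds, did not pass (0.21 ± 0.09, adjusted p = 0.075), although it did in DESeq2 (adjusted p = 0.0481) and with the kallisto estimates (adjusted p = 0.0153). Of the 6 genes tested on the list of BAFF and APRIL receptors, which also holds TNF receptors and Traf3, 1 rose and 2 fell, and the 2 ligand genes had too few counts to test. Tnfrsf13b, which encodes TACI, rose from 97.2, 101, 79.9 and 111 CPM to 293, 259.5, 276 and 295 CPM (1.54 ± 0.10, adjusted p = 2e-05). The BAFF receptor gene Tnfrsf13c did not pass (0.06 ± 0.10, adjusted p = 0.63). TACI and BAX values in the stimulated state lay above all resting values, and NOXA values below.

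A few genes left the libraries. At 7 genes every resting library had at least 10 CPM and every stimulated library fewer than 3 reads, and the opposite pattern was found at 0 genes. C1qc, a chain of complement C1q made by macrophages, stood at 28.3, 23.9, 118 and 48.4 CPM at rest and at 0 in all 4 stimulated libraries. Its resting order, with the 3'RR deletion highest, is that of the macrophage sum (652.4, 491.6, 2172 and 937.7 CPM). That sum holds C1qc itself, so the likeness of order is not independent. Mmp12, a macrophage elastase, had another order at rest, 23.5, 14.7, 13.2 and 79.1 CPM, highest in the hs3b-hs4 deletion. Of the 7 genes, 3 are on the lists of genes of other cells (Slc40a1, C1qb and C1qc). The lists are short, and Mmp12 is not on them. Fcna is not on them either, yet had the order of the macrophage sum at rest (19, 18.2, 76.8 and 29.7 CPM). Among the largest falls in CPM were genes that stayed abundant: Macf1, a linker of microtubules and actin, went from 2205, 2318, 2113 and 2121 CPM to 608, 740.0, 746 and 727 CPM (-1.64 ± 0.11, edgeR adjusted p = 2e-05), and Stk17b, a kinase of lymphocytes, from 1699, 2058, 1638 and 1822 CPM to 308, 399, 369.9 and 327 CPM (-2.36 ± 0.11, adjusted p = 6.7e-06).

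Transcript usage changed at many genes. Of 7363 genes with at least 2 measured transcripts, 3528 (47.9%) passed limma's diffSplice test, paired by genotype, on the deposited kallisto estimates. At 564 called genes, with at least 200 estimated counts in each state, a transcript's share of its gene moved by 20 percentage points or more in 1 direction in all 4 genotypes, and most of those transcripts were of 1 kind: 500 protein-coding transcripts gained share and 58 lost it, while 42 transcripts annotated as retained introns lost share and 8 gained it. Ddx39 encodes a helicase of mRNA export. Its coding transcript Ddx39-201 held 31.3, 44.5, 39.1 and 40.8% of the gene at rest and 89.5, 86.5, 88.2 and 88.6% after stimulation (diffSplice adjusted p = 1.36e-11). Its retained-intron transcript Ddx39-203 held 21.5, 22.8, 25.2 and 22.6% at rest and 4.96, 5.83, 5.93 and 5.81% after stimulation. The states did not overlap for either. Txndc9, a thioredoxin domain protein, gained its transcript Txndc9-208, which held 4.37, 6.20, 9.93 and 4.38% at rest and 55.7, 44.0, 55.3 and 46.6% after stimulation (adjusted p = 3.39e-13). Hnrnph1, an RNA-binding protein that controls splicing, had its transcript Hnrnph1-201 at 11.4, 11.1, 12.3 and 12.5% at rest and at 35.4, 33.0, 36.3 and 33.8% after stimulation (adjusted p = 1.72e-15). Thrap3, an SR-like splicing protein, had Thrap3-201 at 19.4, 23, 24.5 and 19.3% and at 46.5, 45.1, 46.6 and 44.0% (adjusted p = 2.35e-15). In each of these the resting libraries lie below all stimulated ones, by more than the spread among libraries of a state.

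Over the 3173 genes with a retained-intron transcript, a measure added after seeing the data, the mean share of these transcripts was 24.4, 23.4, 22.4 and 23.7% at rest and 17.5, 18.1, 17.0 and 18.0% after stimulation. The paired difference was -5.79 percentage points with an SD of 0.760 (exact sign-flip p = 0.13, the smallest 4 pairs can give). The share was lower in all 4 genotypes at 1877 of the genes (59.2%) and higher in all 4 at 169 (5.33%). In percentage points, the difference was uneven between gene lists. It was -17.9 points over cholesterol synthesis genes, where 8 of 8 were lower in all 4 genotypes, -14.9 points over tRNA synthetase genes (10 of 12), -11.8 points over ribosome biogenesis genes (13 of 14) and -11.4 points over proteasome genes (15 of 16). It was -2.58 points over cytosolic ribosomal protein genes (35 of 41) and -2.65 over translation factor genes (9 of 14), lists of which most members rose. The ribosomal protein genes had a low share at rest already, 11.8, 11.4, 10.3 and 11.8%, which leaves less room for a fall in points. The difference was -6.20 points over LPS receptor and Toll-like receptor genes (5 of 9) and -5.47 over autophagy and lysosome genes (10 of 14), lists of which most members fell. Over the B cell and plasma cell transcription factor genes it was -0.97 points, and over tubulin and actin genes 0.43 points. Reads of an unspliced precursor and of a mature transcript that keeps an intron cannot be told apart in these estimates, which come from total RNA depleted of ribosomal RNA.

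**Figure D5:**
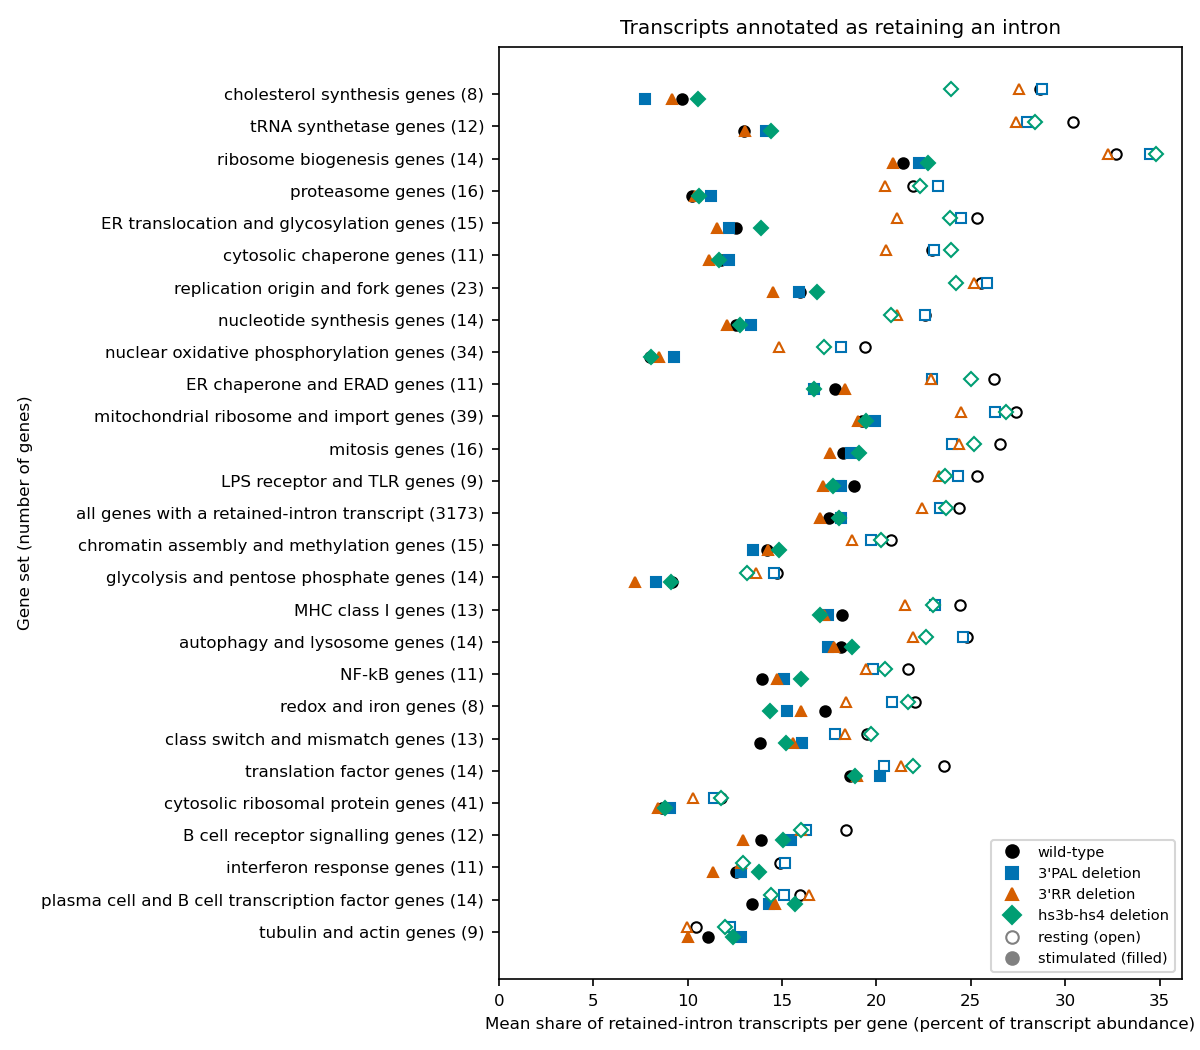
Mean share (percent of a gene's transcript abundance, as estimated counts over effective length) of transcripts annotated as retained introns in each library, per gene list and over all such genes. Open symbols are resting and filled ones stimulated libraries. Over all 3173 genes the 4 stimulated libraries (17.0 to 18.1%) lie below the 4 resting libraries (22.4 to 24.4%), and the gap is widest over cholesterol synthesis genes among the lists drawn.

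Of the 9761 genes called, 9601 changed in the same direction in all 4 genotypes. Calling rests on these same 4 pairs, so this count is no separate evidence of a like response. Ratios across all genes correlated at 0.882 to 0.926 between genotypes (13791 genes, which are not replicates). The SD of the log2 ratios was 1.59 in the wild-type, 1.4 in the 3'PAL deletion, 1.57 in the 3'RR deletion and 1.58 in the hs3b-hs4 deletion. The test of whether stimulation differed between the 2 genotypes lacking hs3b-hs4 (3'RR and hs3b-hs4 deletion) and the 2 keeping it called 0 genes in edgeR, with 366 at an unadjusted p under 0.05 (0% called at an adjusted p under 0.05). The 366 are fewer than a share of 0.05 of the 13791 genes, the share that chance alone would give. With few residual degrees of freedom, the absence of called genes does not show that the genotypes respond alike. DESeq2 called 1 gene (0.00725%), Cygb, a globin of fibroblast-like cells, with an interaction of -3.01 on the log2 scale (DESeq2 adjusted p = 0.019). Cygb stood at 8.26, 10.3, 10.9 and 22.2 CPM at rest, highest in the hs3b-hs4 deletion, and at 1.87, 3.11, 0.221 and 0.985 CPM after stimulation.

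Some lists had unlike medians in the 4 genotypes, which with 1 library per genotype and state has no test. The mitosis list had a median log2 ratio of 3.60 in the wild-type, 2.60 in the 3'PAL, 2.54 in the 3'RR and 3.86 in the hs3b-hs4 deletion. Its summed level was 701.1, 887.8, 1036 and 497.1 CPM at rest and 6074, 4494, 5708 and 5612 CPM after stimulation, so the resting values had the wider relative spread. Interferon response genes had medians on both sides of 0: the median ratio was -0.97 in the wild-type, 1.39 in the 3'PAL, -0.13 in the 3'RR and 0.94 in the hs3b-hs4 deletion. In the test across genotypes 11 of 35 rose and 4 fell, or 7 without the 3'PAL deletion pair. Ifit1, which binds foreign RNA, rose from 6.2, 3.1, 7.43 and 2.5 CPM to 29.7, 31.5, 18 and 44.8 CPM (2.71 ± 0.44, edgeR adjusted p = 0.0011), without overlap. Ifi27l2a, another interferon-induced gene, stood at 61.8, 32.4, 51.9 and 31.9 CPM at rest and at 60.9, 309, 219 and 184 CPM after stimulation, flat in the wild-type pair and higher in the other 3 pairs (2.00 ± 0.50, adjusted p = 0.0085), and its states overlapped. Tlr7, a receptor of single-stranded RNA, was lower after stimulation in the wild-type pair and higher in the others, at 56.4, 36.6, 47 and 40.4 CPM and 28.4, 87.3, 55.1 and 52.2 CPM (0.23 ± 0.31, adjusted p = 0.55, and 0.0385 without the wild-type pair).

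Igj, the joining chain of IgM and IgA, differed between genotypes at rest already. It stood at 131, 609, 393 and 889 CPM at rest and at 166, 588, 1009 and 465 CPM after stimulation (0.18 ± 0.33, edgeR adjusted p = 0.65). The wild-type was lowest in both states, the hs3b-hs4 deletion was highest at rest and the 3'RR deletion after stimulation. Antibody secretion genes as a list rose at 10 of 15 and none fell, with sums of 352.6, 895.6, 695 and 1211 CPM at rest and 857.6, 1728, 2175 and 1360 CPM after stimulation. The sum of 9 plasma cell genes was 1091, 1756, 1129 and 1948 CPM at rest, and what part plasma cells left in the resting pools have in these values was not tested. Fech, which inserts the iron into heme and is used heavily by red cell precursors, fell from 28.7, 154, 95.9 and 60.7 CPM to 14.8, 15.9, 16 and 14.6 CPM (-2.24 ± 0.34, adjusted p = 0.00083), but its resting values ran from the wild-type at 28.7 CPM to the 3'PAL deletion at 154 CPM. Erythroid sums at rest (3288, 22350, 13950 and 10850 CPM) had the 3'PAL deletion highest and the wild-type lowest as well, and their part in this gene was not tested.

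A small set of abundant genes stayed level. Of 906 genes with a mean log2 CPM of 7 or more, 68 had all 4 ratios within 0.25 of 0 on the log2 scale. Actb, beta-actin, stood at 4676, 4365, 5467 and 5073 CPM and at 5054, 4639, 5666 and 5129 CPM, and its stimulated values differed from the resting value of the same genotype by less than the genotypes differed among themselves. Cox7a2l, a factor of respiratory supercomplexes, was at 134, 153, 176 and 147 CPM and at 134, 159, 179 and 145 CPM, with the same order of genotypes in both states. Both genes had overlapping states.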

How the data were processed

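RNA was measured by stranded, ribosomal RNA-depleted, paired-end sequencing in 8 libraries. Reads were aligned with STAR (2.4.0a) and counted with featureCounts of Subread (1.4.6-p1) on GRCm38, and transcripts were estimated with kallisto (0.42.3), per the submitters' processing notes, which give no role or order. The authors deposited whole-number counts per gene for 41250 genes (25075 with a count) and estimated counts per transcript. The deposited TPM table and the 92 spike-in entries without counts were not used here. An unnamed entry held 0.00621 to 0.0342% of the counts per library and was left out.

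Counts were tested with edgeR (4.0.16): TMM scaling, filterByExpr at a group size of 4 (13791 genes), genotype as a block, quasi-likelihood F test, and glmTreat for changes over 2-fold. Adjusted p-values are Benjamini-Hochberg, called under 0.05. CPM and log2 ratios use TMM library sizes, the ratios with a prior count of 2. The SE of a log2 fold change is its absolute value over the square root of the F statistic. That statistic is moderated across genes, so the SE is not the spread of the 4 ratios. Nothing in the labels says whether resting and stimulated pools share animals; deviations from the state means correlated at 0.205 to 0.613 across genes between libraries of a genotype and at -0.326 to 0.189 between genotypes. With 1 library per genotype and state, p-values measure the spread between these pools, which holds genotype. The interaction compared the 2 genotypes lacking hs3b-hs4 with the 2 keeping it. Estimated counts were rounded, and their usage tested with limma (3.58.1). Transcript shares are percents of a gene's estimated counts after division by each transcript's effective length. DESeq2 (1.42.0) was an alternative. Others were other scaling, no filter, no block, leaving out each pair, and kallisto estimates, plus scaling without 10 abundant non-coding RNAs, chosen after seeing the data. The fits were tested on simulated data.

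The gene lists were chosen with earlier results of these data known, and no list was tested as a set. Named genes were the largest changes in fold (12 each way) and in CPM (10 each way), genes absent in 1 state, up to 5 called members of each list in its majority direction and 3 in the other, the 8 steadiest, the 8 widest between genotypes and the 8 usage genes with the lowest p. Ccnd3, mt-Nd2, Hspa5, Tlr4, Ly96, Cd86, Mcl1, Tnfrsf13c and Cygb fall outside this rule and were chosen after their values were seen. Promoters are RefSeq's, GRCm38.p6, and transcript types come from a GENCODE annotation of GRCm38.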

Additional observations from a re-analysis of the deposited data

Results flagged for a closer look

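Single libraries stood apart from the other 3 of their set at 6 of 166 sets of 4 values examined (Dixon's test at 95%), where chance picks about 1 in 20. For Hmgcs1 the log2 ratio of the 3'RR deletion was 2.875, below the 3.17 to 3.212 of the other genotypes. For Il6 the ratio of the wild-type was 3.959, above 1.473 to 1.69, but its resting library held 1 read of the gene, under the floor of 3 reads, so that this ratio depends on the prior count. For Hk3 the ratio of the hs3b-hs4 deletion was -4.703, below the -4.325 to -4.267 of the others. Cytosolic ribosomal protein genes took 7.347% of the reads in the stimulated 3'RR deletion library, above 6.749 to 6.83% in the other stimulated libraries. The dendritic cell genes summed to 89.56 CPM in the same library, above 68.49 to 69.56 CPM. The stimulated hs3b-hs4 deletion library had the lowest depth of its state, 25596608 counted reads against 28432227 to 28785192.

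In 3 named genes the 2 genotypes that keep hs3b-hs4 went the opposite way to the 2 that lack it, and in none did edgeR's interaction test pass (adjusted p = 1 for each). All 3 are among the genes chosen after their values were seen, so the pattern is only described. Where ratios lie near 0, as for Tnfrsf13c (-0.1905 to 0.2649), signs can split this way by chance. The difference of the log2 fold changes, lacking minus keeping, was 0.8086 for mt-Nd2, -0.8867 for Ly96 and 0.3311 for Tnfrsf13c. For Cygb the same difference was -3.01 in DESeq2 (adjusted p = 0.019), the 1 gene called there, while edgeR called 0 genes.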

How the results depend on the processing

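The number of genes that changed was 9761 and stayed within 1.5 times of this under every alternative, as did the 3288 genes that changed by over 2-fold. Leaving out the pair of 1 genotype at a time gave 8769 to 9606 and 2895 to 3493 genes, and transcript usage gave 2750 to 3064 genes against 3528. Without the replicate block, that is without pairing by genotype, 9423 genes changed, 3068 by over 2-fold and 3184 in usage. DESeq2 called 9432 genes, kallisto estimates summed per gene 9683 and no filter on low counts 10453. For the difference of stimulation between genotypes, DESeq2 called 1 gene, and edgeR called 0 under each scaling and filter run. Of 112 named genes, 104 kept direction and side of the threshold under every alternative. With the kallisto estimates Hist3h2a went to 1.83, and the cause was not tested. Class shares moved beyond their SD only with the kallisto estimates, where the cause was not tested: the difference between states became 0.2723 points for mitochondrially encoded protein genes, 2.318 for ribosomal protein, 1.239 for immunoglobulin, -1.236 for MHC class II, 1.442 for histone, 0.7464 for translation factor, 0.6591 for glycolysis and 0.544 for mitosis genes. The kallisto estimates gave no share for mitochondrial ribosomal RNA, for Rn7sk, Rpph1 and Rmrp or for Malat1. These took 18.9, 4.09 and 0.906% of the counted reads at rest, so the kallisto shares and the read shares are of unlike totals. Leaving out 1 pair gave -0.480 to 1.45 points for mitochondrial ribosomal RNA, whose direction then rests on single genotypes. Low depth limits genes near 0.102 to 0.163 CPM, where 3 reads set the floor.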

Other observations

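Redox genes changed in both directions. Of 24 redox and iron genes, 10 rose and 7 fell, beside 34.9% higher and 35.9% lower over all genes tested. Txn1, the cytosolic thioredoxin, stood at 34.6, 36, 54.8 and 36 CPM at rest and at 190.3, 148, 203 and 182 CPM after stimulation (2.18 ± 0.12 on the log2 scale, SE, n = 4 pairs; edgeR adjusted p = 1.1e-05). Prdx1, a peroxiredoxin that thioredoxin reduces, went from 112, 126, 132 and 125 CPM to 516, 355, 482 and 458 CPM (1.86 ± 0.13, adjusted p = 2.3e-05). Srxn1, the sulfiredoxin that repairs overoxidized peroxiredoxins, fell from 1.85, 1.32, 3.13 and 1.41 CPM to 0.282, 0.342, 0.295 and 0.354 CPM (-2.51 ± 0.32, adjusted p = 0.00035). Tfrc, the transferrin receptor, rose from 101, 223, 183 and 96.7 CPM to 423, 305, 375 and 379 CPM (1.38 ± 0.27, adjusted p = 0.0029). It was highest at rest in the 3'PAL and 3'RR deletions, whose erythroid sums were the highest at rest too (22350 and 13950 CPM). The wild-type and the hs3b-hs4 deletion differed little in resting Tfrc, with erythroid sums of 3288 and 10850 CPM. The part of erythroid cells in these values was not tested. None of these 4 genes had overlapping states.

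Tubulin and actin genes rose at 13 of 21 and fell at 2. Tuba1b, an alpha-tubulin, stood at 113, 148, 212 and 145 CPM and at 807, 505, 936 and 853 CPM (2.33 ± 0.18, edgeR adjusted p = 3.6e-05). Stmn1, the microtubule-destabilizing protein stathmin, stood at 17.5, 18.1, 25 and 10.6 CPM at rest and at 111, 66.5, 124 and 103 CPM after stimulation (2.53 ± 0.22, adjusted p = 5e-05). Both were higher in every stimulated than in every resting library. Hosts of small nucleolar RNAs and nuclear non-coding RNAs rose at 4 of 14 and fell at 4. Snhg4 rose from 14.7, 15.5, 11.2 and 17.8 CPM to 55.1, 29.3, 40.2 and 48.4 CPM (1.53 ± 0.17, adjusted p = 0.00018), and Neat1, the scaffold of paraspeckles, fell from 198, 153, 169 and 184 CPM to 55, 117, 75 and 70.7 CPM (-1.20 ± 0.22, adjusted p = 0.0019).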
